A study of Homo sapiens with 17 samples.

Results

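DNA replication starts at origins. In G1 the origin recognition complex, CDC6 and CDT1 load the MCM helicase ring onto DNA, a step called licensing, and in S phase CDC45 and the GINS complex join the ring to form the active CMG helicase. Polymerase alpha-primase then lays the primers, and polymerases epsilon and delta copy the strands. PCNA, which RFC loads, holds these polymerases on the template. RPA covers single-stranded DNA, and FEN1, DNA2 and LIG1 finish the Okazaki fragments. Many of these genes are targets of E2F transcription factors, and their mRNA is known to be higher in cycling cells than in resting cells.

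The expression of 44 genes of this machinery was followed in SF8628 cells, a diffuse midline glioma (DMG) line with the H3K27M mutation, treated with the BET bromodomain inhibitor AZD5153. The 44 genes were picked by name as the parts of 10 sub-complexes, and all 44 reached the minimum for testing, a mean normalized count of 10 over the 12 libraries, as did 15599 of the 60664 genes in the table. A normalized count is a read count divided by a size factor of its library. The cells received vehicle (DMSO) or AZD5153 at 1 μM and were taken for RNA-Seq after 24 or 48 hours. There were 4 groups of 3 libraries, all from this 1 line. Whether the 3 libraries of a group came from separate cultures is not given in the sources used here, so the p-values measure the spread between these libraries, which may be technical. The values of SD below are over the 3 libraries of a group. The SE and adjusted p come from limma, with Benjamini-Hochberg adjustment over the 15599 genes. The SE rests on 1 fit of all 12 libraries, so a gene has the same SE for its AZD5153 effect at 24 and at 48 hours.

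Each library had 15759148 to 27335220 reads on genes. DMSO replicate 1 at 24 hours stood apart from replicates 2 and 3 of its group (chi-square per degree of freedom of 16.8 and 25.6, beside at most 5.21 for any other pair of replicates). Leaving it out gave 42 of the 44 genes lower at the earlier time and 37 at the later. Of 8 glial markers, 6 had a mean of 10 or more, with VIM, CD44 and NES the highest, whereas the glioma markers OLIG2 (0 in all libraries) and PDGFRA (group means of 1.54 to 4.42) were absent or nearly so. Among the 6, GFAP (group means of 28.9 to 41.9) and S100B (57.1 to 77.9) were low beside VIM (15327 to 22869). HEXIM1, a gene known to rise on BET inhibition, was higher by 2.17 on the log2 scale at 24 hours and by 2.05 at 48 hours. Of markers of other cell types, AIF1, CDH5, HBA1 and HBB were at 0 in every library. The sum of the 5 neuronal markers was 702.5 to 841 in DMSO and 754 to 858 in AZD5153 at 24 hours, mostly from SYT1. At 48 hours the neuronal sum was 705.1 to 886 in DMSO and 799 to 926 in AZD5153. SYT1 did not pass the test at either time, and SNAP25 was lower (log2 -1.45 and -1.36). The summed level of the 4 endothelial markers was 327 to 381 in DMSO and 55.1 to 67.0 in AZD5153 at 24 hours, mostly from PECAM1, and that of the 5 myeloid markers was 183 to 228 and 42.8 to 53.6, mostly from CSF1R. At 48 hours the endothelial sum was 605 to 642 in DMSO and 50.0 to 62.9 in AZD5153, and the myeloid sum was 194 to 226 and 34.7 to 57.6. The sum of the 3 epithelial markers, nearly all from KRT18, was higher with treatment, at 854 to 901 in DMSO and 1008 to 1145 in AZD5153 at 24 hours and at 909 to 994 and 1369 to 1482 at 48 hours. Of the glial markers, NES (log2 -1.43 and -1.87) and SOX2 (-0.60 and -0.30) were lower at both times, whereas CD44 was higher (0.17 and 0.53). VIM was lower at 24 hours (-0.28) but not at 48 hours (0.01), and GFAP and S100B did not pass the test. Several of these markers moved with treatment, and the part of the markers in the results below was not tested.

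Most of the replication machinery was lower under AZD5153. At 24 hours 41 of the 44 genes were lower (93.2%, beside 34.6% of all genes tested), 1 gene, ORC4, was higher (33.9% of all genes), and RECQL4 and POLD2 did not pass the test. The median log2 fold change of the 44 genes was -1.28, beside 0.0004 for all genes. At 48 hours 36 genes were lower (33.9% of all genes) and 2, ORC4 and ORC5, were higher (33.1% of all genes), with a median of -0.75 beside 0.0011. The 6 genes that did not pass at 48 hours were ORC2, GINS4, RECQL4, POLE, RFC5 and DNA2. At both times 35 genes were lower (27.1% of all genes). A decrease of at least 1 on the log2 scale was called for 30 genes at 24 hours (15.7% of all genes) and for 16 genes at 48 hours (16.5% of all genes). In bulk RNA, fewer cells in a state that expresses these genes and less RNA per cell cannot be told apart.

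**Figure D1:**
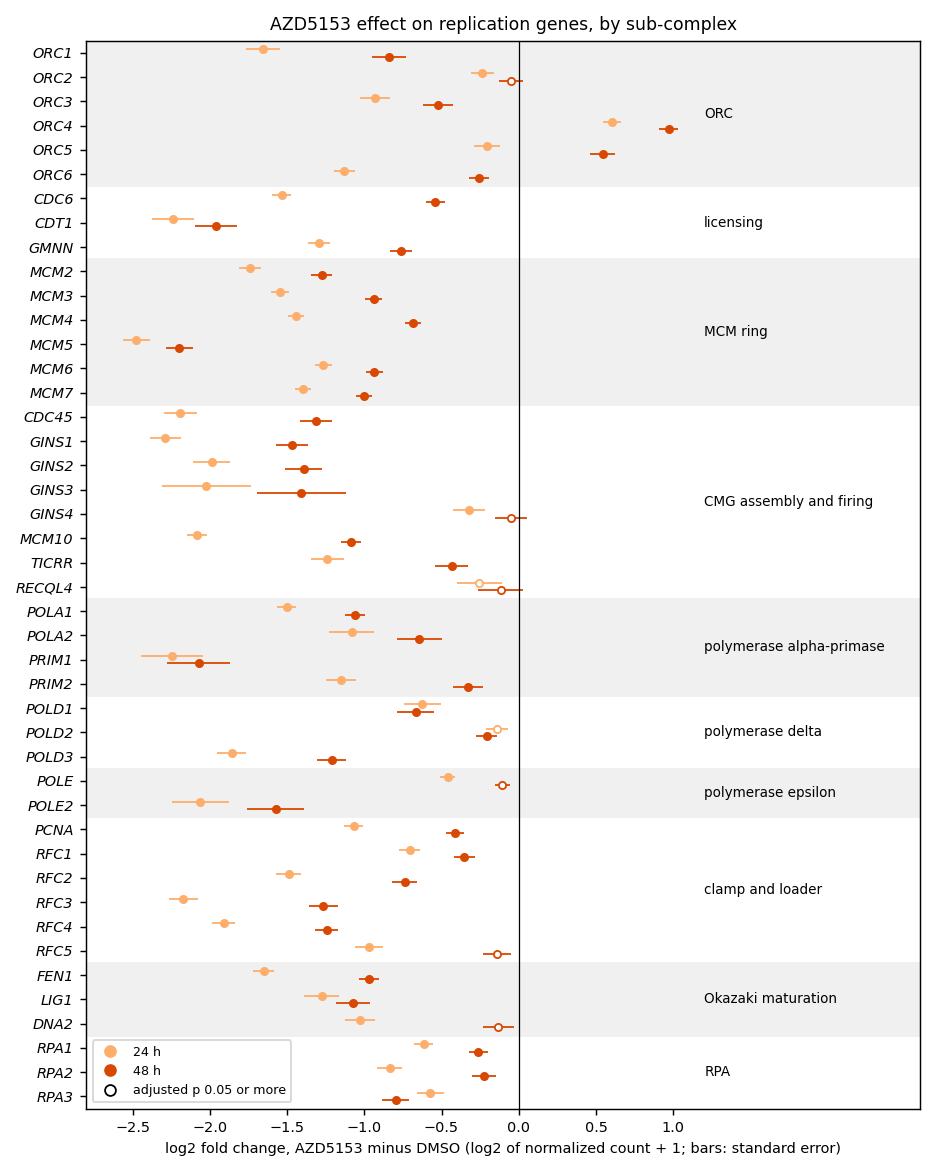
The log2 fold change between AZD5153 and DMSO is plotted for each of the 44 genes, grouped by sub-complex, at 24 hours (light) and 48 hours (dark), with its standard error. Open points did not pass the threshold. Nearly all points lie left of 0, most dark points lie nearer to 0 than the light ones, and ORC4 lies right of 0 at both times.

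The changes were unequal between sub-complexes. The median log2 fold change at 24 hours was -2.00 for the CMG assembly and firing factors, -1.54 for licensing, -1.49 for the MCM ring, -1.33 for polymerase alpha-primase, -1.28 for the clamp and its loader and -1.28 for Okazaki fragment maturation. It was -1.26 for polymerase epsilon, -0.62 for polymerase delta, -0.62 for RPA and -0.58 for the origin recognition complex. At 48 hours the medians ran from -1.20 for CMG assembly and firing to -0.15 for the origin recognition complex. These medians rest on 2 to 8 genes each and are given as descriptions.

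The promoters of 36 of the 44 genes were read from the RefSeq table on GRCh38.p14, from 250 bases before to 50 bases after the start site. The genes MCM4, MCM5, GINS4, RECQL4, POLD3, DNA2, RPA2 and RPA3 had no entry. The E2F type letters TTTCCCGC or TTTGGCGC stood on either strand in 14 of the 36 windows (38.9%), beside 2.89% of 19074 gene promoters of the same length. The NF-Y type letters CCAAT stood in 58.3% of the windows, beside 36.2% of all promoters. The CHR letters TTTGAA, whose opening TTTG is shared with TTTGGCGC, stood in 0 of the 36 windows, beside 12.8% of all promoters. All promoters were taken without regard to expression or base composition, and the part of either in these shares was not tested. The 14 genes with an E2F type match had a median log2 fold change of -1.54 at 24 hours and -1.07 at 48 hours, and the 22 genes without one had -1.14 and -0.54. The ranges of the groups at 24 hours, -2.29 to -0.46 and -2.25 to 0.60, overlapped over most of their length. A match is a description and not a site, and no match says only that these letters are not in this window.

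Stretches of 110 bases, 90 before and 20 after the start site, are shown 5′ to 3′ on the strand of the gene for 4 genes that fell strongly and hold an E2F type match (CDT1, GINS1, RFC3, POLE2), for POLE, which changed little and carries the same letters as its partner POLE2, and for ORC4, which rose. Capitals mark the E2F type match on either strand. They lie at chr16:88803699-88803808 (plus strand), chr20:25407583-25407692 (plus), chr13:33818059-33818168 (plus), chr14:49688195-49688304 (minus), chr12:132687323-132687432 (minus) and chr2:148020718-148020827 (minus), in that order. No capitals stand in the ORC4 stretch. A strong decrease at 24 hours was also seen without a match in the window, for PRIM1 (log2 -2.25), CDC45 (-2.19), MCM10 (-2.09) and RFC4 (-1.91), which are not shown.
CDT1: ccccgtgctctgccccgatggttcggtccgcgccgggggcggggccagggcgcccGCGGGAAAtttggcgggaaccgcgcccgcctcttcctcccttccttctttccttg
GINS1: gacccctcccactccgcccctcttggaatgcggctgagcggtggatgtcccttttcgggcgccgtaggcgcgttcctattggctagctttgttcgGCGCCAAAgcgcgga
RFC3: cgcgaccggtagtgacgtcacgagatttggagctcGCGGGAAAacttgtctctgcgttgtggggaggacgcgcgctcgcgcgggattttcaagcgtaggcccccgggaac
POLE2: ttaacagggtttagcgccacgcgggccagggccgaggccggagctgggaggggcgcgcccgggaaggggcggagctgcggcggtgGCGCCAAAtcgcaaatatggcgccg
POLE: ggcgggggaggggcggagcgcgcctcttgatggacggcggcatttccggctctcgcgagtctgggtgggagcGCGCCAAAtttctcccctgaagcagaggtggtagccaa
ORC4: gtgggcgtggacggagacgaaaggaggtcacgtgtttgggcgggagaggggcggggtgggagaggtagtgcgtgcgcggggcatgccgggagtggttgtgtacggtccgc

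The origin recognition complex marks origins on chromatin, and its 6 genes split under AZD5153. ORC1, the subunit known to come and go with the cell cycle, was at 727, 685 and 585 normalized counts in DMSO at 24 hours and at 197, 212 and 222 in AZD5153. It was at 428, 412 and 446 in DMSO at 48 hours and at 207, 249 and 264 in AZD5153. The groups did not overlap at either time, and ORC1 fell by 1.65 ± 0.11 (SE) on the log2 scale at 24 hours and by 0.84 ± 0.11 at 48 hours (limma adjusted p = 1.6e-09 and 4.5e-06). ORC6, which helps to recruit the MCM ring, fell by 1.13 and 0.26, and ORC3 fell by 0.93 and 0.52. ORC2, the partner of ORC3 in the core of the complex, fell by 0.24 at 24 hours and had a log2 fold change of -0.05 at 48 hours (limma adjusted p = 0.57).

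ORC4, an ATP-binding subunit of the same ring, went the other way. It was at 1678, 1503 and 1435 normalized counts in DMSO at 24 hours and at 2389, 2302 and 2307 in AZD5153, and at 1251, 1213 and 1294 in DMSO at 48 hours and 2477, 2414 and 2470.2 in AZD5153. Every AZD5153 library lay above every DMSO library, and ORC4 was 1.52-fold higher at 24 hours and 1.96-fold higher at 48 hours (log2 0.60 ± 0.06 and 0.97 ± 0.06, limma adjusted p = 2.1e-07 and 7e-10). ORC4 (chr2:147930396-148021604, minus strand, GENCODE 44) shares 431 exonic bases with ACVR2A and 157 with MBD5 on the opposite strand, and the strand setting of the counting is not given in the sources used here. ACVR2A had group means of 358 in DMSO and 531 in AZD5153 at 24 hours (log2 0.57, limma adjusted p = 4.7e-04) and 332 and 502 at 48 hours, whereas MBD5 had log2 fold changes of -0.12 and -0.14 that did not pass the test (limma adjusted p = 0.2 and 0.14). The group mean of ORC4 itself went from 1539 ± 126 to 2333 ± 49.0 (SD) at 24 hours. From 24 to 48 hours ORC4 changed by -0.29 on the log2 scale in DMSO, and its change in AZD5153 (0.07) did not pass the test. The part of shared reads in the ORC4 result was not tested.

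ORC5, the neighbour of ORC4 in the ring, changed direction. It was at 719, 658 and 725 normalized counts in DMSO at 24 hours and at 625, 553 and 645 in AZD5153, and at 443, 393 and 439.5 in DMSO at 48 hours and 600.0, 646 and 612 in AZD5153. At 24 hours it was lower by a small margin (log2 -0.21 ± 0.08, limma adjusted p = 0.036), a call that was lost without DMSO replicate 1 (log2 -0.19) or 3 (-0.18) or AZD5153 replicate 2 (-0.14) at 24 hours. At 48 hours it was 1.46-fold higher (log2 0.54 ± 0.08, limma adjusted p = 2.5e-05). The AZD5153 groups of the 2 times overlapped, and the DMSO group fell by 0.72 on the log2 scale between them. Within each library the log2 ratio of ORC1 to the mean of ORC2 to ORC5 was -0.78 to -0.59 in DMSO and -2.27 to -2.08 in AZD5153 at 24 hours, and -0.99 to -0.92 and -2.23 to -1.90 at 48 hours.

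**Figure D2:**
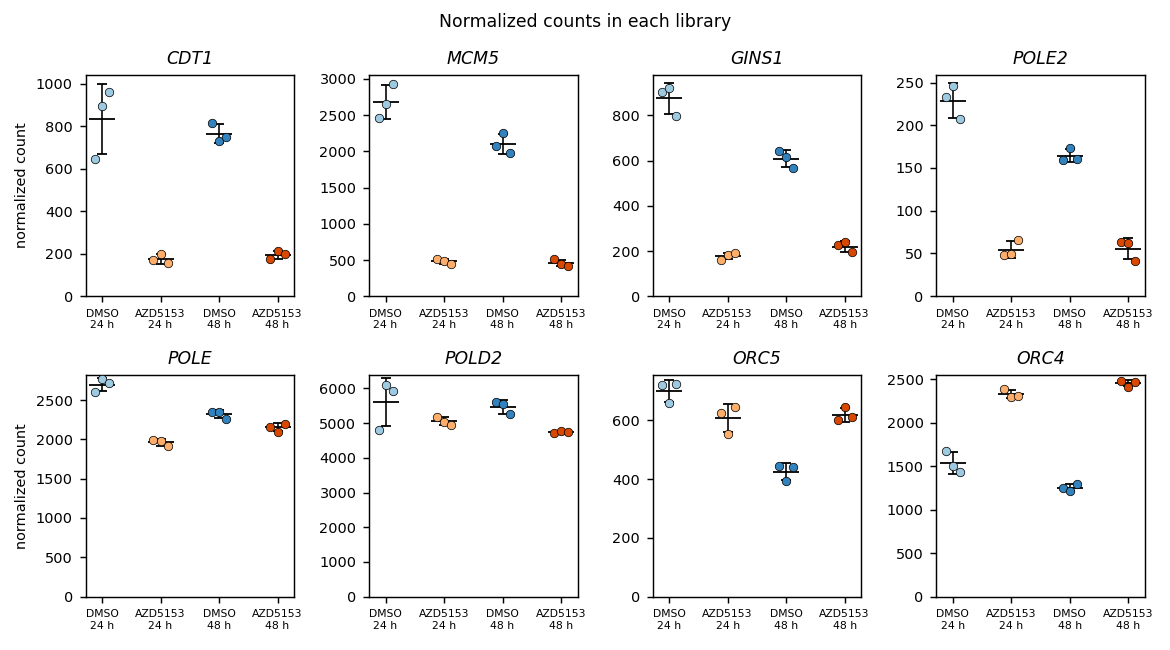
Normalized counts of 8 genes are plotted for each library by group, with the mean and SD as bars, and every axis starts at 0. CDT1, MCM5, GINS1 and POLE2 drop in both AZD5153 groups, POLE and POLD2 change little, ORC5 is lowest in DMSO at 48 hours, and ORC4 is higher in both AZD5153 groups.

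All 3 licensing genes fell at both times. CDT1, which brings the MCM ring to the origin, was at 648, 896 and 963 normalized counts in DMSO at 24 hours and at 172, 199 and 154 in AZD5153. It was at 814, 731 and 750.4 in DMSO and at 176, 213 and 200.2 in AZD5153 at 48 hours. The groups lay far apart at both times, although DMSO replicate 1 at 24 hours was low for this gene, and CDT1 was 4.72-fold and 3.89-fold lower (log2 -2.24 ± 0.14 and -1.96 ± 0.14, limma adjusted p = 6.3e-10 and 3.2e-09). GMNN, whose product geminin binds and blocks CDT1, was at 982, 966 and 1009 in DMSO and at 399.6, 395 and 411 in AZD5153 at 24 hours, and at 744, 655 and 710.5 in DMSO and 405, 411 and 424 in AZD5153 at 48 hours. GMNN fell by 1.29 ± 0.07 and 0.76 ± 0.07 on the log2 scale (limma adjusted p = 1.8e-10 and 9.7e-08), less than CDT1. The log2 ratio of CDT1 to GMNN was -0.60, -0.11 and -0.07 in DMSO and -1.22, -0.99 and -1.42 in AZD5153 at 24 hours, and 0.13, 0.16 and 0.08 in DMSO and -1.20, -0.95 and -1.08 in AZD5153 at 48 hours. The ratio was lower in every AZD5153 library than in any DMSO library. CDC6, the ATPase that works with CDT1, fell by 1.54 at 24 hours and by 0.54 at 48 hours.

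The 6 genes of the MCM ring, the motor of the helicase, all fell at both times, and MCM5 fell most. MCM5 was at 2460.5, 2651 and 2934 normalized counts in DMSO and at 511, 489 and 441 in AZD5153 at 24 hours. The later DMSO libraries held 2078, 2254 and 1972 and the later AZD5153 libraries 508, 442 and 424. It was 5.57-fold lower at 24 hours and 4.59-fold lower at 48 hours (log2 -2.48 ± 0.09 and -2.20 ± 0.09, limma adjusted p = 1.2e-12 and 4.5e-12), the largest decrease among the 44 genes at either time. MCM6 changed least of the ring at 24 hours, from 5146, 4905 and 4656 in DMSO to 1944, 1990.4 and 2185 in AZD5153, and at 48 hours it was at 3759.7, 3583 and 3817 in DMSO and at 1919, 1938 and 1974 in AZD5153. MCM6 fell by 1.27 ± 0.06 and 0.94 ± 0.06 on the log2 scale (limma adjusted p = 1.3e-11 and 4.7e-10). MCM2, MCM3, MCM4 and MCM7 fell by 1.74, 1.55, 1.44 and 1.40 at 24 hours and by 1.28, 0.94, 0.68 and 1.00 at 48 hours. Per kilobase of transcript, the level of MCM5 was the lowest of the 6 in every group, and the highest level, that of MCM7, was 4.07 times that of MCM5 in DMSO and 8.64 times in AZD5153 at 24 hours. The products of these genes stand in equal number in the ring, and their mRNA levels lay further apart under treatment. The log2 ratio of CDC6 to the mean of the 6 ring genes was -0.69 to -0.53 in DMSO and -0.59 to -0.40 in AZD5153 at 24 hours, and -1.11 to -0.93 and -0.43 to -0.41 at 48 hours, where the groups did not overlap.

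The factors that turn the loaded ring into an active helicase held the largest median decrease, yet 2 of the 8 stood apart. GINS1, a subunit of the GINS complex, was at 904, 922 and 798 normalized counts in DMSO and at 162, 183 and 189.7 in AZD5153 at 24 hours. By 48 hours the DMSO libraries held 642, 617 and 567 counts and the AZD5153 libraries 225, 239 and 195. It was 4.88-fold and 2.77-fold lower (log2 -2.29 ± 0.10 and -1.47 ± 0.10, limma adjusted p = 1.6e-11 and 3.2e-09). GINS2 and GINS3 fell by 1.99 and 2.02 at 24 hours and by 1.39 and 1.41 at 48 hours. GINS4, the remaining subunit of the same complex, fell by 0.32 ± 0.10 at 24 hours (limma adjusted p = 0.013) and had a log2 fold change of -0.05 ± 0.10 at 48 hours (limma adjusted p = 0.67). CDC45 and MCM10, which are needed to activate the helicase, fell as well, with log2 fold changes of -2.19 and -2.09 at 24 hours and -1.31 and -1.09 at 48 hours, and TICRR, which links cyclin-dependent kinase activity to CDC45 loading, fell by 1.24 and 0.43. RECQL4, a helicase needed for initiation, was at 765, 1224 and 1325 in DMSO and at 917, 958 and 829 in AZD5153 at 24 hours, and at 1102, 1077 and 951 in DMSO and 1008, 926 and 948 in AZD5153 at 48 hours. The groups overlapped at both times (log2 -0.26 ± 0.15 and -0.12 ± 0.15, limma adjusted p = 0.13 and 0.49). DMSO replicate 1 at 24 hours was the lowest RECQL4 library, and without it the log2 fold change was -0.50 and passed the test. GINS1 shares 259 exonic bases with NINL on the opposite strand and TICRR shares 589 with KIF7. NINL was higher at 24 hours (log2 0.62) and KIF7 was higher at both times (log2 1.05 and 0.33), opposite to the genes they overlap.

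Polymerase alpha-primase, which starts each new strand with a primer, was lower in all 4 subunits at both times. PRIM1, the catalytic primase subunit, was at 373, 330.3 and 350.4 normalized counts in DMSO and at 59.0, 67.6 and 97.9 in AZD5153 at 24 hours. PRIM1 counts at 48 hours were 262, 230.5 and 273 in DMSO and 80.2, 45.6 and 58.2 in AZD5153. The groups were far apart, at 4.75-fold and 4.21-fold lower (log2 -2.25 ± 0.20 and -2.07 ± 0.20, limma adjusted p = 6.6e-08 and 1.7e-07). PRIM1 shares 139 exonic bases with NACA on the same strand, whose group means were 7159 in DMSO and 5260.4 in AZD5153 at 24 hours. POLA2, a non-catalytic subunit, was at 233, 184 and 219 in DMSO and at 114, 93.2 and 91.8 in AZD5153 at 24 hours, and at 173, 144 and 179 in DMSO and 103, 98.9 and 114 in AZD5153 at 48 hours. It fell by 1.08 ± 0.15 and 0.65 ± 0.15 on the log2 scale (limma adjusted p = 6.9e-06 and 0.001), and with quantile normalization the call at 48 hours was lost (log2 -0.31). POLA1, the polymerase subunit, fell by 1.50 and 1.06, and PRIM2, the large primase subunit, fell by 1.15 and 0.33.

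The lagging strand polymerase delta was uneven. POLD3, an accessory subunit, was at 1299.6, 1124 and 1076 normalized counts in DMSO and at 292, 345 and 326 in AZD5153 at 24 hours. POLD3 counts at 48 hours were 859, 783 and 832 in DMSO and 366, 324 and 379.9 in AZD5153. It was 3.62-fold and 2.31-fold lower (log2 -1.86 ± 0.09 and -1.21 ± 0.09, limma adjusted p = 6.6e-11 and 1.1e-08). POLD2, which bridges POLD3 and the catalytic subunit, was at 4807, 6111 and 5913 in DMSO and at 5190.2, 5044 and 4942 in AZD5153 at 24 hours, where the groups overlapped (log2 -0.14 ± 0.07, limma adjusted p = 0.083). At 48 hours POLD2 was at 5622, 5541 and 5253 in DMSO and at 4703, 4772 and 4732 in AZD5153, and it was lower by 0.21 ± 0.07 on the log2 scale (limma adjusted p = 0.015). The lowest POLD2 library of DMSO at 24 hours was replicate 1 (without it, log2 -0.25, which passed the test), and the call at 48 hours was lost without DMSO replicate 1 of that time (log2 -0.19). POLD1, the catalytic subunit, fell by 0.62 and 0.67. Per kilobase, POLD2 was 11.3 times the level of POLD3 in DMSO and 37.1 times in AZD5153 at 24 hours.

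The leading strand polymerase epsilon was split between its subunits. POLE2, the accessory subunit that ties the polymerase to the CMG helicase, was at 233, 246 and 207 normalized counts in DMSO and at 48.3, 49.1 and 66.1 in AZD5153 at 24 hours. POLE2 at 48 hours was at 159, 173 and 161 in DMSO and at 63.8, 61.9 and 41.1 in AZD5153. It was 4.17-fold and 2.97-fold lower (log2 -2.06 ± 0.18 and -1.57 ± 0.18, limma adjusted p = 6.4e-08 and 1.5e-06). POLE, the catalytic subunit, was at 2609, 2763 and 2724 in DMSO and at 1999, 1977 and 1912 in AZD5153 at 24 hours, and at 2347, 2352 and 2262 in DMSO and 2164, 2098 and 2198 in AZD5153 at 48 hours. Its groups did not overlap at either time, but the decrease was small (log2 -0.46 ± 0.05 and -0.11 ± 0.05, limma adjusted p = 4.4e-07 and 0.06). The missing call at 48 hours depended on the processing: POLE passed as lower with edgeR, TMM, quantile normalization, equal totals, a minimum mean of 100, only the groups compared, and without DMSO replicate 1 at 24 hours (log2 -0.28 to -0.11). The log2 ratio of POLE2 to POLE was -3.48, -3.49 and -3.72 in DMSO and -5.37, -5.33 and -4.85 in AZD5153 at 24 hours, and it dropped by 1.48 in AZD5153 against DMSO at 48 hours. The promoter stretches of both genes printed above carry the same 8 letters in capitals.

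PCNA, the sliding clamp, and the 5 RFC genes that load it all fell at 24 hours. RFC3, a small loader subunit, was at 1479.9, 1525 and 1426 normalized counts in DMSO and at 278, 337 and 374 in AZD5153 at 24 hours. RFC3 at 48 hours was at 970.1, 993 and 1056 in DMSO and at 398, 436 and 419 in AZD5153. It was 4.50-fold and 2.41-fold lower (log2 -2.17 ± 0.09 and -1.27 ± 0.09, limma adjusted p = 1e-11 and 6.2e-09). RFC1, the large subunit, which only the PCNA loader of replication contains, was at 3629, 3587 and 3222 in DMSO and at 2073, 1994 and 2343 in AZD5153 at 24 hours, and at 2799.5, 2905 and 3164 in DMSO and 2373, 2258 and 2303 in AZD5153 at 48 hours. It fell by 0.70 ± 0.07 and 0.35 ± 0.07 on the log2 scale (limma adjusted p = 1.7e-07 and 2.6e-04). RFC2 and RFC4 fell by 1.49 and 1.91 at 24 hours and by 0.74 and 1.24 at 48 hours, and RFC5 fell by 0.97 at 24 hours and did not pass at 48 hours (log2 -0.14, limma adjusted p = 0.18). PCNA fell by 1.07 and 0.41. The log2 ratio of PCNA to the mean of RFC2 to RFC5 was 1.50 to 1.73 in DMSO and 2.13 to 2.16 in AZD5153 at 24 hours, and 1.47 to 1.58 and 1.91 to 2.07 at 48 hours. RFC2, RFC3 and RFC4 had larger decreases than PCNA at both times, whereas the fold changes of RFC1 and RFC5 were smaller in size than that of PCNA. WSB2, which overlaps RFC5 by 186 exonic bases on the opposite strand, was lower as well (log2 -1.37 and -1.36).

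The enzymes that process Okazaki fragments fell together at 24 hours. FEN1, the flap endonuclease, was at 3156, 3629 and 3639 normalized counts in DMSO and at 1208, 1059 and 1053 in AZD5153 at 24 hours, and at 2689.6, 2710.1 and 2751 in DMSO and 1367, 1353 and 1443 in AZD5153 at 48 hours. It was 3.14-fold and 1.96-fold lower (log2 -1.65 ± 0.07 and -0.97 ± 0.07, limma adjusted p = 5.7e-12 and 3.2e-09). FADS2, which shares 49 exonic bases with FEN1 on the same strand, was lower as well (log2 -2.56 and -1.88). DNA2, a nuclease and helicase for long flaps, was at 482, 449.8 and 469 in DMSO and at 239, 220.1 and 228 in AZD5153 at 24 hours. At 48 hours DNA2 was at 362, 336 and 285 in DMSO and at 300.0, 308 and 286 in AZD5153, where the groups overlapped. It fell by 1.03 ± 0.10 at 24 hours (limma adjusted p = 1.5e-07) and had a log2 fold change of -0.13 ± 0.10 at 48 hours (limma adjusted p = 0.25). LIG1, the ligase that seals the nicks, fell by 1.28 and 1.07.

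RPA, the trimer that coats single-stranded DNA, was lower in all 3 subunits. At 24 hours each fell by less than the median of the 44 genes, whereas at 48 hours RPA3 fell by more than that median. RPA2, the middle subunit, was at 1367, 1590.1 and 1344 normalized counts in DMSO and at 885, 766 and 756 in AZD5153 at 24 hours. RPA2 at 48 hours was at 1138, 1115 and 1039.8 in DMSO and at 901, 953 and 962 in AZD5153. It fell by 0.84 ± 0.08 and 0.23 ± 0.08 on the log2 scale (limma adjusted p = 1.3e-07 and 0.02), and the call at 48 hours was lost without DMSO replicate 1 (log2 -0.20) or 2 (-0.21) or AZD5153 replicate 1 (-0.20) of that time. RPA3, the smallest subunit, was at 1208, 1354 and 1288 in DMSO and at 811, 882 and 895 in AZD5153 at 24 hours, and at 1063, 1140.1 and 1337 in DMSO and 624, 720.4 and 687 in AZD5153 at 48 hours. It fell by 0.57 ± 0.09 and 0.80 ± 0.09 (limma adjusted p = 2.3e-05 and 6e-07). RPA1, the large DNA-binding subunit, fell by 0.62 and 0.26.

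**Figure D3:**
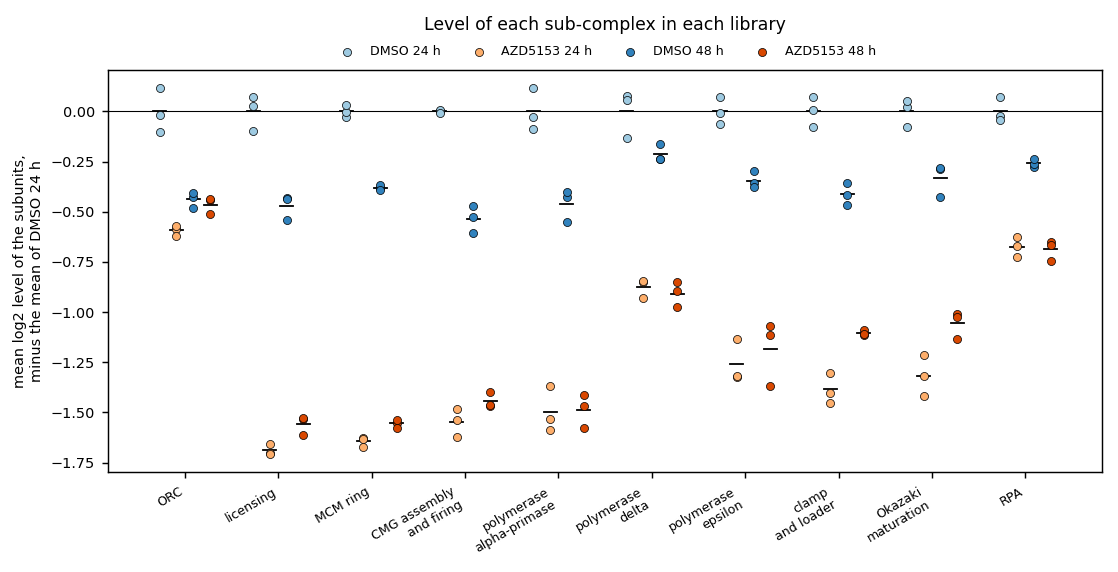
The mean log2 level of the genes of each sub-complex is plotted for each library, as the difference from the mean of the DMSO libraries at 24 hours, with group means as bars. In 9 of the 10 sub-complexes both AZD5153 groups lie below both DMSO groups, and for the origin recognition complex the AZD5153 and DMSO libraries at 48 hours overlap.

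Whether the effect differed between the times was tested as the effect at 48 hours minus that at 24 hours. This difference was above 0 for 31 of the 44 genes (14.4% of all genes) and below 0 for 0 (10.1% of all genes), with a median of 0.56 beside 0.0016 for all genes. At an unadjusted p under 0.05, limma counted 0 genes below 0, as did edgeR and DESeq2. The largest differences were those of MCM10 (1.00 ± 0.09, limma adjusted p = 2.2e-06), CDC6 (1.00 ± 0.09, limma adjusted p = 1.3e-06), RFC3 (0.90 ± 0.13, limma adjusted p = 1.7e-04) and DNA2 (0.89 ± 0.14, limma adjusted p = 2.8e-04). For the 13 other genes it did not pass the test, among them the 3 genes with the strongest decrease at 48 hours, namely MCM5 (0.28 ± 0.12, limma adjusted p = 0.11), PRIM1 (0.17 ± 0.28, limma adjusted p = 0.7) and CDT1 (0.28 ± 0.19, limma adjusted p = 0.32).

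The same difference is the change with time in AZD5153 minus the change with time in DMSO, and both were measured. In DMSO, 33 of the 44 genes were lower at 48 than at 24 hours (19.3% of all genes) and 0 were higher (16.4% of all genes, with 0 of the 44 also at an unadjusted p under 0.05 by limma, edgeR and DESeq2), with a median log2 change of -0.43 beside 0.0125 for all genes. The largest of these decreases were those of MCM10, by 0.82, CDC6, by 0.82, and ORC5, by 0.72. In AZD5153, 2 genes were lower at 48 hours, GINS4 and RPA3 (13.8% of all genes), and 17 were higher (15.8% of all genes), with a median of 0.14 beside 0.0098. The count of 17 moved with the processing and was 11 with edgeR and 16 with DESeq2, 8 without AZD5153 replicate 1 or 2 at 24 hours or replicate 3 at 48 hours, and 11 and 10 without replicate 1 and replicate 2 at 48 hours. RFC5 rose most in AZD5153, by 0.48 ± 0.09, whereas it fell by 0.34 in DMSO. The pattern of lower with time in DMSO and higher with time in AZD5153 was called for 17 genes, beside 2.5% of all genes. The mean log2 level of all 44 genes, set to 0 for DMSO at 24 hours, was -1.29 to -1.27 in AZD5153 at 24 hours, -0.43 to -0.39 in DMSO at 48 hours and -1.17 to -1.15 in AZD5153 at 48 hours.

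**Figure D4:**
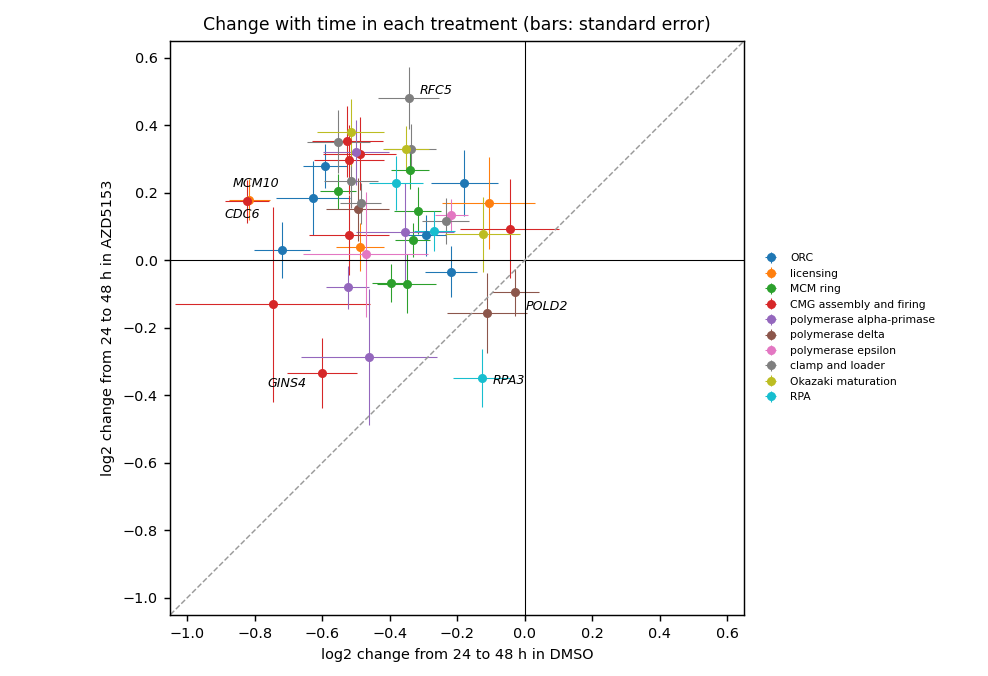
The log2 change from 24 to 48 hours in DMSO (horizontal) is plotted against that in AZD5153 (vertical) for the 44 genes, with standard errors, and colours give the sub-complex. The dashed line marks equal change. All 44 points lie left of 0, most lie above the dashed line, and MCM10 and CDC6 lie farthest to the left.

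Replication genes outside the 44 were read from lists of 43 genes in all, of which CHTF8 and RNASEH2A had a mean under 10 and were not tested. Of the 41 tested, 34 were lower and 4 higher at 24 hours (34.6% and 33.9% of all genes). At 48 hours 29 were lower and 7 higher (33.9% and 33.1% of all genes). The medians were -0.94 and -0.44, beside 0.0004 and 0.0011 for all genes. The counts in the single lists below are of 2 to 7 genes each and stand beside the same shares. All 6 firing kinases and partners were lower at both times, from MTBP, the partner of TICRR, at -2.49 at 24 hours to DONSON, a replisome factor, at -0.71. Of 6 licensing regulators, 5 were lower at 24 hours, with FBXO5 (EMI1, an inhibitor of the ubiquitin ligase that destroys geminin) at -2.05, and LRWD1, which binds the origin recognition complex, was higher (1.15), with KAT7, an acetyltransferase at origins, the smallest change (-0.30). At 48 hours KAT7 was higher instead (0.18, limma adjusted p = 0.01). From 24 to 48 hours KAT7 changed by -0.20 in DMSO and by 0.27 in AZD5153. All 5 fork protection genes were lower at 24 hours, from WDHD1 at -1.88 to TIMELESS at -0.62, and at 48 hours CLSPN, a checkpoint mediator at the fork, did not pass (0.08, limma adjusted p = 0.35).

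Of the other MCM genes, MCM8 was lower (-1.64) and MCM9 did not pass (-0.24). All 3 alternative clamp loader genes tested were lower, from ATAD5 at -1.52 to CHTF18 at -0.76. The small polymerase subunits split, with POLE3 lower (-0.94), POLE4 higher (0.85) and POLD4, at group means of 18.2 to 29.6, not passing (0.62). Of the RNA primer removal genes, the RNase H2 subunits went apart, with RNASEH2B lower (-1.81) and RNASEH2C higher (1.18), and RNASEH1 changed least (-0.07, not passing), but RNASEH1 was higher at 48 hours (0.52, limma adjusted p = 5.3e-06). From 24 to 48 hours RNASEH1 changed by -0.42 in DMSO, and its change in AZD5153 (0.17) did not pass. Nucleotide supply was lower in 6 of 7 genes, from TYMS, thymidylate synthase, at -2.10 to TK1, thymidine kinase, at -0.28. TYMS had an SE of 0.29 and was at 397, 214 and 157 normalized counts in DMSO at 24 hours, with replicate 1 the highest. RRM2B, the p53-inducible ribonucleotide reductase subunit, was higher (1.23). RRM2, the cell cycle subunit of the same enzyme, turned from lower at 24 hours (-0.85) to higher at 48 hours (0.52, limma adjusted p = 1.7e-07), and the difference between the times passed the test (1.37, limma adjusted p = 1.2e-08). From 24 to 48 hours RRM2 changed by -0.95 in DMSO and by 0.43 in AZD5153. Its group mean in AZD5153 at 48 hours (4197) was below that in DMSO at 24 hours (5636). The 6 chromatin assembly genes were all lower at 24 hours, from CHAF1A, a histone chaperone of the fork, at -1.73 to ASF1A at -0.25. At 48 hours 4 of them were lower, and CHAF1B (0.13, limma adjusted p = 0.11) and ASF1A (0.17, limma adjusted p = 0.066) did not pass. The values for genes outside the 44 are log2 fold changes by limma, at 24 hours where no time is given.

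Most of the cell cycle genes read were lower as well. CDKN1A, which encodes the CDK inhibitor p21, had a mean of 255 in the DMSO libraries and of 6975 under AZD5153 at 24 hours, with 302 and 4934 at 48 hours (log2 4.78 and 4.03). Of the E2F factors, E2F1 was lower (log2 -0.91 and -0.38), as were E2F2 (-4.59 and -3.44) and E2F8 (-4.38 and -2.29). CCNA2, the S phase cyclin, was lower (log2 -2.72 and -1.63), and CCNE1 was lower at 24 hours (-0.36) and higher at 48 hours (0.56). From 24 to 48 hours CCNE1 changed by -0.58 in DMSO and by 0.35 in AZD5153. Of the 9 cell cycle genes read, 7 were lower and 1 higher at 24 hours (34.6% and 33.9% of all genes). At 48 hours 6 were lower and 2 higher (33.9% and 33.1% of all genes). MYC was higher by 1.47 and 0.82. All 7 mitotic genes were lower at both times (27.1% of all genes), with medians of -1.83 and -1.07. The part of these changes in those of the replication genes was not tested.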

How the data were processed

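RNA was sequenced by the authors from SF8628 cells as paired-end reads of 150 bp, checked with FastQC, aligned to hg38 with STAR and counted on genes with HTSeq-count. The deposited values are a signal, namely counts per gene divided by 1 DESeq2 size factor per library. To recover reads, each library was divided by a step fitted to its own values. After this division, 100% of the values above 0 were whole numbers within a tolerance of 0.01. Versions, annotation and strand setting of this step are not given in the sources used here. The deposited table also holds fold changes and p-values of the authors, which were not used. CUT&RUN samples were not analysed here.

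Genes with a mean of at least 10 were fitted with limma 3.58.1 (R 4.3.3; lmFit, eBayes with trend) on log2(normalized count + 1), so that fold changes of low genes are understated. All 4 groups entered 1 fit, with Benjamini-Hochberg adjustment and a threshold of 0.05. As foreseen for normalized values, limma was the main test, and edgeR 4.0.16 (quasi-likelihood) and DESeq2 1.42.0 were run on the recovered reads. Replicate libraries differed by 2.12 to 25.6 (chi-square per degree of freedom), more than sampling noise, with the highest values for DMSO replicate 1 at 24 hours. Genes were matched to GENCODE 44 (60463 of 60664), and levels per kilobase use the Ensembl canonical transcript. Members and lists were chosen with earlier results of these data known. Values per library are given for the genes with the largest and smallest absolute change at 24 hours in each sub-complex and for those called higher or in opposite directions at the 2 times. Neighbours that overlap a gene were named after their values were seen, and not all were named. For 12 genes a neighbour with shared exonic bases had a mean of at least 10% of the gene's own. Not named above were GSE1 (over GINS2), LIPT2-AS1 (POLD3), SMYD4 (RPA1) and HSD17B6 (PRIM1), lower at both times. EIF4A2 (RFC4) and an unnamed noncoding gene (POLA2) were higher at both times, and UMAD1 (RPA3) was higher at 48 hours. The part of shared reads was not tested. Alternatives were pseudocounts of 0.5 and 10, a minimum mean of 100 or none, other scalings and fits, a limit of 1 on the estimated log2 change of called genes and leaving out each library. The steps were tested on simulated data. Python 3.11.15 was used for the summaries.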

Additional observations from a re-analysis of the deposited data

Results flagged for a closer look

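For 31 genes the AZD5153 effect differed between 24 and 48 hours by the limma interaction term (threshold 0.05 after Benjamini-Hochberg adjustment). The effect at 48 hours minus that at 24 hours, on the log2 scale, was above 0 in each. It was 1.00 for MCM10 and CDC6, 0.90 for RFC3, 0.89 for DNA2, 0.88 for CDC45, 0.87 for ORC6, 0.82 for RFC5, PRIM2 and GINS1 and 0.81 for ORC1 and TICRR. It was 0.76 for MCM4, 0.75 for ORC5 and RFC2, 0.68 for FEN1, 0.67 for RFC4, 0.65 for PCNA and POLD3, 0.61 for RPA2 and MCM3, 0.59 for GINS2 and 0.53 for GMNN. It was 0.46 for MCM2, 0.44 for POLA1, 0.41 for ORC3, 0.39 for MCM7, 0.37 for ORC4, 0.35 for RPA1, RFC1 and POLE and 0.33 for MCM6. For ORC4, which was higher than in DMSO at both times, this is a larger difference at 48 hours, and for ORC5 a change from lower to higher. From 24 to 48 hours ORC4 changed by -0.29 on the log2 scale in DMSO (limma adjusted p = 0.0012). Its change in AZD5153 was 0.07 (limma adjusted p = 0.39).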

How the results depend on the processing

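Under 13 alternatives of pseudocount, minimum mean, scaling, fit and count model, and with each library left out, the counts at 24 hours were 40 to 43 genes lower (40 to 42 with a library left out) and 1 higher, and at 48 hours 34 to 40 lower (34 to 37) and 2 higher (2). Under 12 of them the difference between times was above 0 for 28 to 31 genes (30 to 34). Under all 13, 31 to 36 genes fell with time in DMSO (31 to 35). Keeping only calls with a log2 change of at least 1, a limit on the estimate, gave 0 genes higher and 30 lower at 24 hours, 16 lower and 0 higher at 48 hours, 0 for the difference between times, 0 lower in DMSO and 0 lower and 0 higher in AZD5153 with time. The count higher with time in AZD5153 was 17 and became 10 with no minimum mean and with quantile normalization, 11 with eBayes without trend and with edgeR, and 8 to 20 with a library left out, and the count lower was 1 with scaling to stably expressed genes and 1 to 2 with a library left out. At 48 hours the log2 fold change of GINS4 (-0.05) was 0.15 with quantile normalization and 0.0665 without AZD5153 replicate 1, in a range of -0.14 to 0.07 over the libraries left out, and that of DNA2 was 0.086 with quantile normalization; the cause was not tested. Equal totals shifted all log2 fold changes by -0.12 at 24 hours and -0.17 at 48 hours. Same-numbered libraries did not deviate together (18 correlations, -0.15 to 0.04), and with a replicate block the counts lower were 41 and 36, and 13 genes rose with time in AZD5153. Of the 1100 gene values at each time, 15 at 24 hours and 21 at 48 hours changed their side of the threshold or their direction, among them ORC5 at 24 hours, whose call was also lost with no minimum mean, quantile, TMM, only the groups compared and edgeR, and POLE at 48 hours, which passed under several of them. Leaving out a library of the other time could not move the log2 fold change, only its p-value. The same held for the minimum mean, only the groups compared, the replicate block and eBayes without trend. The low counts of changed values are therefore no measure of stability. Genes near 50 counts, such as GINS3 in AZD5153, had the widest errors.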
